A study of Arabidopsis thaliana with 14 samples.

Results

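Of the 66593 binding peaks deposited in 10 lists, one for each condition, 125 peaks of the list labelled ARR12 mock overlapped no peak of any other B-ARR line. They were chosen by their values: from the 6005 peaks of that list, the 5390 with a peak score (−log10 p-value against input) of at least 16 were taken, the 6 within 50 kb of ARR12 itself (AT2G25180) were left out, and of the 5384 kept peaks those sharing at least 1 bp with any peak of the 8 lists of other lines were removed. The remaining 5259 kept peaks of the same list are called the other kept peaks. Membership was therefore 2.32% of the kept peaks by construction, and the score, fold enrichment, width and distance to other lists of these peaks are given as descriptions only.

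All lines were in the Columbia-0 background, and chromatin of 3-days-old seedlings was precipitated with an antibody against GFP. ARR1, ARR10, ARR12 and ARR14 carried a C-terminal Ypet tag placed by recombineering in a large genomic clone, which was added to wild-type plants that keep their own untagged gene. Seedlings grew in long days, except for 1 etiolated list. The lists covered ARR1 in etiolated and in long-day seedlings after 4 h of DMSO (mock), ARR1 after 10 µM 6-BA for 4 h or 72 h, ARR10 and ARR12 each after mock treatment and after 10 µM 6-BA for 4 h, ARR14 after 10 µM 6-BA for 72 h, and the truncated ARR1∆DDK, a YFP and GR fusion without the receiver domain, after 10 µM Dex for 4 h. The last was identified by its title, because its line label names the full-length ARR1. Each list was 1 combined list without replicates and without read counts, so the depth behind a peak is unknown, and intervals and p-values below cover counting over peaks only. Peaks are not replicates of a condition, and neighbouring peaks within a repeat share their sequence. Both ARR12 lists carry here the names in their labels. The target genes tabulated in the study match these lists the other way round, so which of them is mock and which 6-BA is uncertain.

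B-ARRs are the Myb-like transcription factors at the end of the cytokinin phosphorelay, in which histidine kinase receptors pass phosphate through phosphotransfer proteins to the receiver domain of the B-ARR. ARR1, ARR10 and ARR12 act redundantly in seedlings, and their DNA-binding domain recognises short sequences with the core AGAT. Peaks seen for 1 family member and for no other are thus the places where its list departs from an otherwise largely shared binding pattern.

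The highest peaks of the group lay on telomere repeats. The peak at chr2:19697970-19698316 (score 127.72, fold 3.99) ranked 10 of the 5384 kept peaks and the peak at chr3:13632986-13633250 (score 116.37, fold 4.13) ranked 16. They held 43 and 36 copies of TTTAGGG or its complement, the unit added by telomerase to chromosome ends. The first lay 1331 bp upstream of AT2G48160, which encodes a Tudor/PWWP/MBT domain protein, and ran 27 bp past the end of chromosome 2 in the assembly. The second lay within the pseudogene AT3G33072, in the interior of chromosome 3. The stretches of 150 bases at their summits are shown because they show how uniform these peaks are (plus strand, RefSeq TAIR10.1, chr2:19698077-19698226 and chr3:13633023-13633172; capitals mark the telomere unit).

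AT2G48160 upstream: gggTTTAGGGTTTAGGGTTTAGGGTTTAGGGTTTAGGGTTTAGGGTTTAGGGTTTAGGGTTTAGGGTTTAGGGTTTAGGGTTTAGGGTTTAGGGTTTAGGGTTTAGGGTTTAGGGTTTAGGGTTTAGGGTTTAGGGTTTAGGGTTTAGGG
AT3G33072 inside: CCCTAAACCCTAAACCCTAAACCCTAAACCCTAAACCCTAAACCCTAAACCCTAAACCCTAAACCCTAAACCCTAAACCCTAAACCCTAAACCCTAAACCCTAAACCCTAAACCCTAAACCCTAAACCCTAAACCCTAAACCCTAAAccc

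Below these, the group split into peaks in repeated DNA and peaks in single-copy DNA. A peak was called repeated when at least 50% of its 32-mers occurred at more than 1 place of the nuclear and organelle assembly. The same held for a peak in one of the arrays described below or in the chloroplast genome. A peak matching the rRNA region by blastn over at least 50% of its length was included too. This split was made after the data were seen and carries no test. By the 32-mers alone, 56 of 125 ARR12-only peaks (44.8%, 95% Wilson interval 36.4–53.5) were repeated, against 78 of 5259 other kept peaks (1.48%, 1.19–1.85). With 100-mers the shares were 36.0% (28.1–44.7) and 1.10% (0.854–1.42). The authors kept only reads with a unique position by their aligner, and how reads came to lie on sequence that is repeated throughout was not tested. The part of repeated sequence in the results below was not tested.

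In all, 58 ARR12-only peaks were repeated or organellar and 67 were mostly single-copy. The ribosomal RNA gene regions and sequence matching them held 16 of the 58. On chromosome 3, 7 peaks between 14191767 and 14205175 covered the 18S gene AT3G41768 and its surroundings, with scores of 23.82 to 38.81. On chromosome 2, 8 peaks between 1092 and 9694, at the very start of the assembled chromosome, covered the 18S gene AT2G01010 and MIR5642b (AT2G03855), with scores of 24.41 to 34.72. Of these 8, the peak at AT2G01008 was classed as other repeated rather than ribosomal. A further copy lay inside AT2G16586 (score 32.35), which encodes an uncharacterized protein, and a peak of 183 bp lay in AT5G10340, an F-box gene (score 18.19). The AT5G10340 peak was classed by its blastn match alone, with 38.8% of its 32-mers repeated.

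Tandem arrays of the pericentromeres held most of the remainder. A repeat of 178 bp, the length of the main centromeric satellite of Arabidopsis, was found at 14 peaks on all 5 chromosomes, with scores of 16.29 to 32.14. The highest of them, 7596 bp downstream of the pseudogene AT3G33055, is shown as 1 unit of 178 bases centred on its summit (chr3:13591481-13591658, plus strand). A further 10 peaks lay in arrays with a period of 498 bp on chromosome 4 and 502 bp on chromosome 5 or in isolated copies of the same sequence. The isolated copy nearest AT5G34358 (chr5:12810781-12810937, score 22.09, fold 3.17) is printed in full. By its letters it resembles a 5S rRNA gene on the minus strand, although the annotation used here lists no nuclear 5S gene. Neither sequence holds the B-ARR motif, AGAT followed by A, C or T and then C or T, on either strand, and so neither has capitals.

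AT3G33055 repeat unit: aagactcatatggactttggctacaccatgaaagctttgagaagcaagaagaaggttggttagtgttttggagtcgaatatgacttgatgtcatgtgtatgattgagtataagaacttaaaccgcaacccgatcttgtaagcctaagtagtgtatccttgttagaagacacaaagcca
AT5G34358 copy: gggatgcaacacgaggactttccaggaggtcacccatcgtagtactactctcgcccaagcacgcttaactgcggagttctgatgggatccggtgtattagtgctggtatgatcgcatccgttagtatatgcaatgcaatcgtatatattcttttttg

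Fold enrichment separated these arrays from the rest. All 41 ARR12-only peaks with a fold under 2.5 were repeated or organellar, with folds of 1.55 to 2.13 and a median score of 26.9. They comprised every peak of the 178-bp repeat and of the ribosomal regions, 8 of the 10 of the arrays with a period near 500 bp, the peaks at AT2G01008 and AT2G07981, and 1 peak of the chloroplast genome (C:36092-36533, score 17.46, fold 1.55). None of the 5259 other kept peaks had a fold under 2.76. The 67 single-copy peaks had folds of 3.86 to 5.87 at scores of 16.06 to 29.37, within the range of the other kept peaks at that score. Their median score was 17.5, against 24.98 for the other kept peaks.

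**Figure D1:**
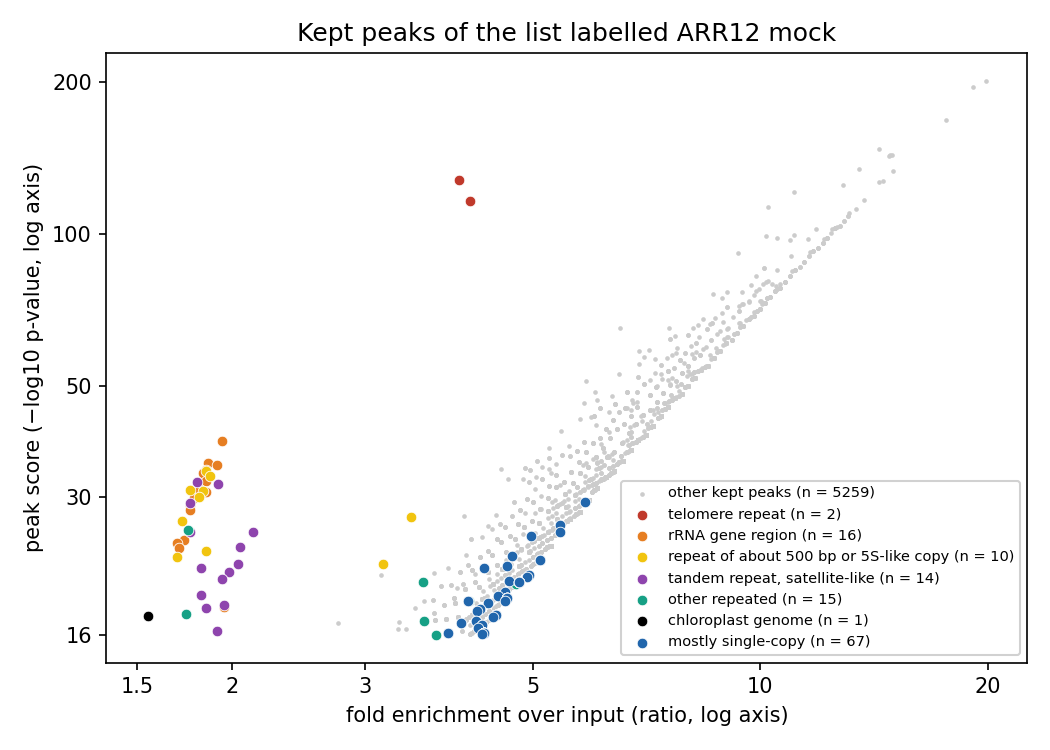
Fold enrichment over input (x axis, ratio, log scale) against peak score (y axis, −log10 p-value, log scale) for the 5384 kept peaks of the list labelled ARR12 mock; grey points are the 5259 other kept peaks and coloured points the 125 ARR12-only peaks by sequence class. The 2 telomere peaks stand alone at scores over 100 and folds near 4, 41 repeated or organellar peaks sit at folds of 1.55 to 2.13, and the 67 single-copy peaks sit at the low-score end of the grey cloud.

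The share of ARR12-only peaks fell with the score, from 65 of 1415 kept peaks (4.59%) between 16 and 20 to 42 of 2161 (1.94%) between 20 and 30, 16 of 1358 (1.18%) between 30 and 50 and 2 of 450 (0.444%) over 50. Single-copy peaks made up 50 of the 65 and 17 of the 42, and none of those over 30. Among the first 1000 ranks there were 2 ARR12-only peaks, both telomeric, and among the first 2000 there were 22, of which 1 was single-copy. The lowest members, at AT4G22710 and AT5G35910, had scores of 16.02 and 16.06, followed by 16.12 at AT5G45390 (CLPP4) among others. The nearest peaks below the minimum that no other line had, at AT1G40104, AT2G26240 and AT2G19220, all had 15.98. The members closest to a peak of another line lay 94, 119 and 201 bp from it, at AT1G07940, AT1G58848 and AT4G20590. The other kept peaks with the shortest overlap shared 202, 230 and 235 bp with one. The member closest to ARR12 was 448394 bp away, and 2 of the 6 peaks left out around ARR12 would otherwise have been members.

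Many single-copy peaks had the same pair of score and fold, and 47 of the 67 shared theirs with another of the 67. The commonest were 16.14 with fold 4.31 in 15 peaks and 17.51 with fold 4.47 in 9 peaks. These pairs were also common among the other kept peaks, with 301 and 267 peaks.

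The 8 lists of other lines differed in where they ended. Their lowest scores ran from 4.88 in ARR1 mock to 31.21 in ARR1∆DDK, and they held 1513 to 11499 peaks, so absence from a list is absence above that list's own limit. Of the 67 single-copy peaks, between 6 (ARR1 etiolated) and 39 (ARR1 72 h and ARR10 mock) had a peak of a given list of another line within 5 kb, and 12 had one of the list labelled ARR12 6-BA. Within 10 kb of the 41 peaks of low fold, the ARR1 lists held 0 to 4 peaks, ARR1∆DDK 2, the ARR10 lists 4 and 3, ARR14 3 and the list labelled ARR12 6-BA 36. The same rule was also applied to each of the other 9 lists against the lists of other lines. Line-only peaks made 12.5% of the kept peaks in ARR14 (1239 of 9893), 11.01% in the list labelled ARR12 6-BA (87 of 790), 3.33% in ARR1 72 h (300 of 9013) and 3.15% in ARR10 6-BA (186 of 5900). They made 1.13% in ARR1∆DDK, 0.820% in ARR10 mock, 0.732% in ARR1 etiolated, 0.131% in ARR1 6-BA and 0 of 71 in ARR1 mock. The 2.32% of the list labelled ARR12 mock thus lay within the range of the others. These shares are not on the same footing. Each ARR1 or ARR1∆DDK list was compared with 5 lists of other lines, each ARR10 or ARR12 list with 8 and ARR14 with 9. A fold under 2.5 was found for all 6 line-only peaks of ARR1 6-BA and for 13 of the 87 of the second ARR12 list, and for 0 of those of the remaining 7 lists. Over all deposited peaks, such folds made 5218 of 7846 in ARR1 6-BA and 94 of 3993 in the second ARR12 list. They made 43 of 6005 in the list labelled ARR12 mock, 1723 of 3324 in ARR1 mock and 7 of 1513 in ARR1 etiolated. The ARR10 lists had 2852 of 11499 (mock) and 1175 of 8680 (6-BA), and ARR1 72 h, ARR1∆DDK and ARR14 had 0.

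The second ARR12 list did not enter the rule, but the comparison with it is not independent of the rule. By that rule, every other kept peak overlapped a peak of another B-ARR line and no ARR12-only peak did. A lower share in a further B-ARR list is thus largely set by this choice, and the test cannot show a difference apart from it. Of all kept peaks, 37.8% overlapped a peak of the list labelled ARR12 6-BA, but of the ARR12-only peaks 9 of 125 did (7.20%, 3.83–13.1), against 2024 of 5259 other kept peaks (38.5%, 37.2–39.8). The odds ratio was 0.124 (two-sided Fisher's exact test, p adjusted over 18 tests = 5.163e-14). The lower share was also found within bands of score, which do not remove the effect of that choice. Between 16 and 20 it was 1 of 65 (1.54%) against 23.6% (adjusted p = 1.024e-05, Fisher's exact test), between 20 and 30 it was 5 of 42 (11.9%) against 32.3% (adjusted p = 0.008008, Fisher's exact test), and between 30 and 50 it was 1 of 16 (6.25%) against 51.6% (adjusted p = 0.0008968, Fisher's exact test). Over 50, both telomere peaks were shared and no difference could be shown (adjusted p = 1, Fisher's exact test).

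All 9 shared peaks were in repeated sequence. The telomere peaks at AT3G33072 and AT2G48160 had scores of 32.8 and 32.33 in the list labelled ARR12 6-BA, with folds of 2.5 and 2.35. Next came the peak in AT4G20590 (15.37), which encodes a cysteine-rich repeat secretory-like protein, and 3 peaks of the 178-bp repeat near the pseudogene AT4G06716 (14.64, 13.31 and 12.31). The peaks at AT2G07981, AT2G16586 and AT5G36320, an ECA1 gametogenesis related gene, had 13.99, 11.19 and 8.43. Each of the 9 scores was below that of the overlapping peak in the list labelled mock, although scores of different lists rest on unknown depths. Around AT4G06716 the list labelled ARR12 6-BA held 14 peaks within 10 kb of the cluster. None of the 67 single-copy peaks was in the list labelled ARR12 6-BA (upper limit of the Wilson interval 5.42%), against 1984 of 5181 single-copy other kept peaks (38.3%).

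**Figure D2:**
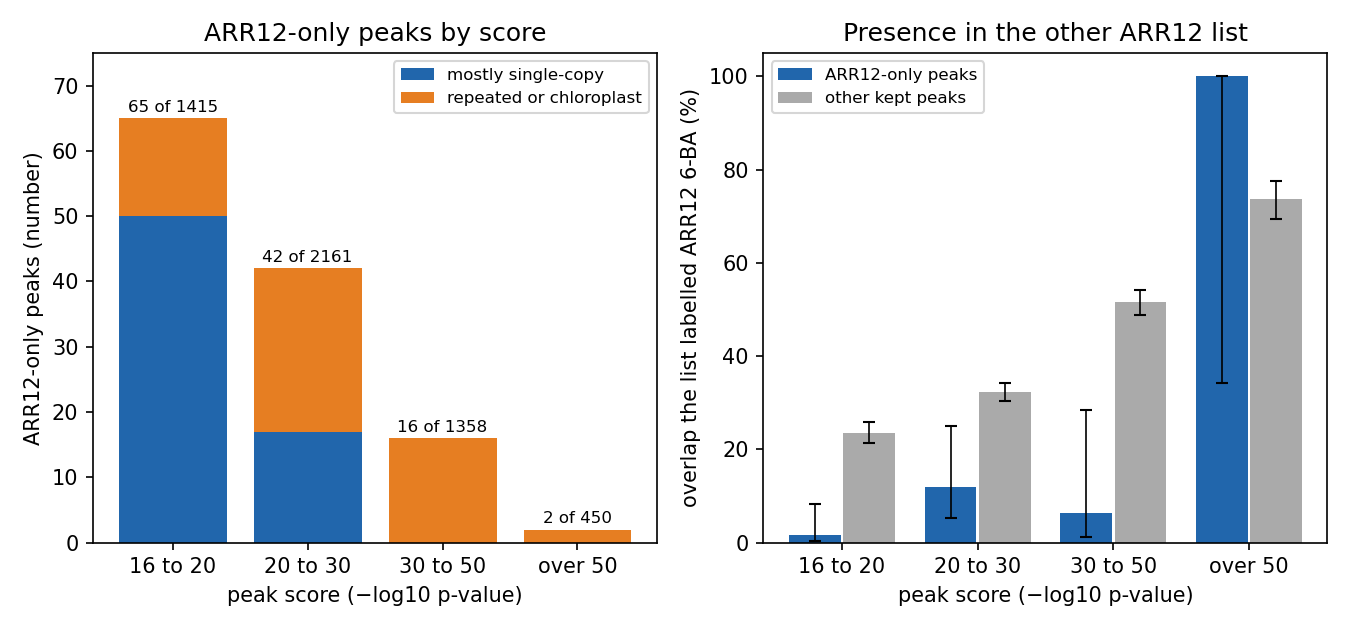
Left, the number of ARR12-only peaks in each band of peak score (−log10 p-value), stacked as single-copy (blue) and repeated or chloroplast (orange), with the count of all kept peaks of the band above each bar; right, the percentage of ARR12-only and of other kept peaks that overlap a peak of the list labelled ARR12 6-BA, with 95% Wilson intervals. Single-copy peaks are absent over a score of 30, and the ARR12-only bars are lower than the grey bars in the 3 bands up to 50 (1.54%, 11.9% and 6.25%).

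Summits were then placed against the 37899 nuclear genes and pseudogenes of the TAIR10.1 annotation. Of the 124 nuclear ARR12-only summits, 64 lay inside the nearest gene, 38 upstream and 22 downstream of it. Within 250 bp of a transcription start site (TSS) were 50 of 124 (40.3%, 32.1–49.1), against 2278 of 5259 (43.3%) and 43.2% of all kept peaks, a difference that did not pass the test (odds ratio 0.884, adjusted p = 0.5877, Fisher's exact test). Summits over 1.5 kb from any gene were more frequent, with 20 of 124 (16.1%, 10.7–23.6) against 409 of 5259 (7.78%, 7.08–8.53) and 7.97% of all kept peaks (odds ratio 2.28, adjusted p = 0.004646, Fisher's exact test). Of these 20, 15 were repeated. The 20 included 3 peaks of the array near AT3G33055, 3 of that near AT4G06716 and 2 of that near AT4G06700. Among all ARR12-only peaks, 36 lay in 8 clusters joined within 10 kb, none of them single-copy. The tests counted such neighbours as independent peaks, so the p-values rest on fewer separate places than peaks. In the lowest band of score, 16 to 20, the shares were 9.38% and 6.96% and did not pass the test (adjusted p = 0.5405, Fisher's exact test), while between 20 and 30 they were 23.8% and 7.93% (adjusted p = 0.00435, Fisher's exact test).

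The position differed between the classes. Of the 67 single-copy peaks, 39 (58.2%, 46.3–69.3) had the summit within 250 bp of a TSS, and 5 (7.46%) lay over 1.5 kb from any gene. Of the 57 nuclear repeated peaks these were 11 (19.3%, 11.1–31.3) and 15 (26.3%). The single-copy summits were more often inside the nearest gene, at any distance from its start. Inside were 40 (59.7%, 47.7–70.6), against 44.7% of the other kept peaks. Upstream were 17 (25.4%, 16.5–36.9), against 37.0%. At scores of 16 to 20, 62.0% of 50 (48.2–74.1) were inside, against 47.8% of 1331 single-copy other kept peaks. Within 250 bp of a TSS were 58.0% (44.2–70.6) against 48.2%. At scores of 20 to 30, with 17 members, these were 52.9% against 42.9% inside and 58.8% against 41.8% near a TSS. Of the 34 inside protein-coding genes, 19 fell in an untranslated exon (55.9%), 12 in a coding exon (35.3%) and 3 in an intron (8.82%). For the 2064 other kept peaks inside such genes the shares were 65.5%, 23.9% and 10.7%. These splits were seen after the classes were formed and were not tested.

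**Figure D3:**
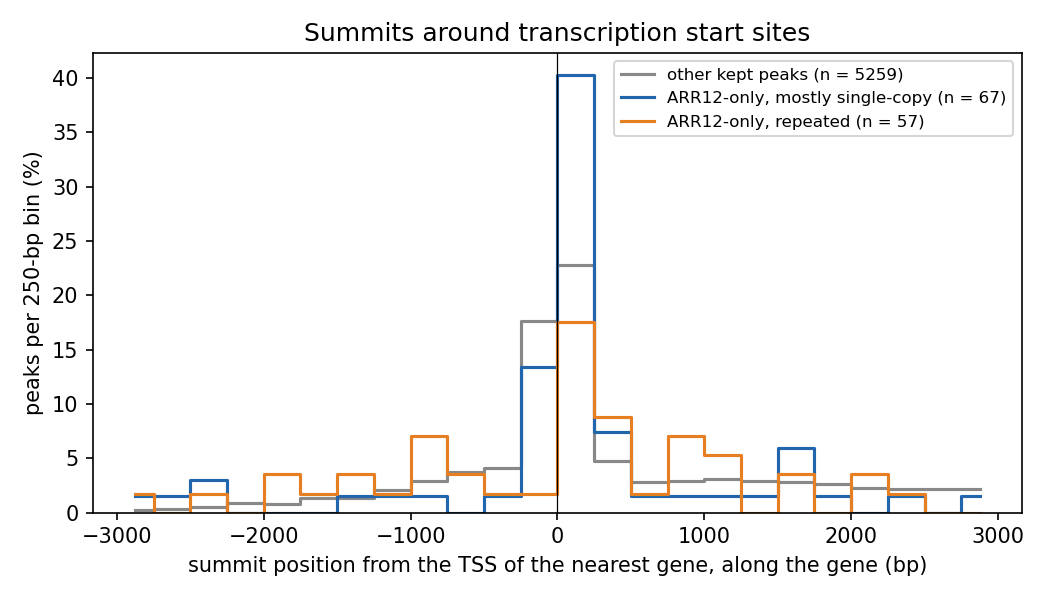
Position of the summit relative to the TSS of the nearest gene (x axis, bp along the gene, negative upstream) and the percentage of peaks in each bin of 250 bp (y axis), for 67 single-copy and 57 repeated ARR12-only peaks and 5259 other kept peaks. The single-copy peaks have their maximum just downstream of the TSS, and the repeated peaks spread over both sides. Peaks more than 3000 bp away are counted in the percentages but not drawn.

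The B-ARR motif was less frequent at ARR12-only summits. In windows of 200 bp it was present in 55 of 124 (44.4%, 35.9–53.1), against 3202 of 5259 (60.9%, 59.6–62.2) and 60.5% of all kept peaks (odds ratio 0.512, adjusted p = 0.0009502, Fisher's exact test). Between scores of 20 and 30 the shares were 42.9% and 60.4% (adjusted p = 0.04205, Fisher's exact test), and between 16 and 20 they were 48.4% and 60.2% and did not pass the test (adjusted p = 0.1019, Fisher's exact test). In windows 500 bp to each side the motif was in 56.7% of the ARR12-only and 60.8% of the other windows, so it was no more frequent at the summits than beside them in either set. Among single-copy peaks it was in 27 of 67 summit windows (40.3%, 29.4–52.3) and in 86 of 134 flanking windows (64.2%, 55.8–71.8). Base composition differed as well: the median GC content was 39.2% in all ARR12-only and 35.1% in all other kept peaks. Among single-copy peaks alone the medians were 37.69% and 35.11%. The part of base composition in the motif counts was not tested.

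Other short motifs were counted on both strands. The G-box CACGTG, bound by bHLH and bZIP factors, was in 6 of 124 summit windows (4.84%, 2.24–10.2) against 18.2% of the other kept peaks (odds ratio 0.228, adjusted p = 0.0001448, Fisher's exact test). All 6 were single-copy, where the share was 8.96% at the summit and 1.49% in the flanks. Between scores of 16 and 20 the G-box was in 10.0% of 50 single-copy members (4.35–21.4), against 14.2% of 1350 other kept peaks. The GAGA motif GAGAGA was in 16.1% against 28.9% (odds ratio 0.474, adjusted p = 0.00435, Fisher's exact test). Single-copy members had it in 23.9% of summits (15.3–35.3) and 23.1% of flanks, and repeated members in 7.02% of summits. Between scores of 16 and 20 it was in 22.0% of 50 single-copy members, against 27.85% of 1350 other kept peaks. The telo-box AAACCCTA, which overlaps the telomere unit, was in 7 windows (5.65%) against 1.77% (odds ratio 3.32, adjusted p = 0.01423, Fisher's exact test), with 2 of the 7 in repeated peaks. The site II element TGGGCC, found in promoters of ribosomal protein and other growth genes, was in 8.06% against 10.9% and did not pass the test (adjusted p = 0.4899, Fisher's exact test). All 10 of its windows were single-copy, at 14.9% of summits and 2.24% of flanks.

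**Figure D4:**
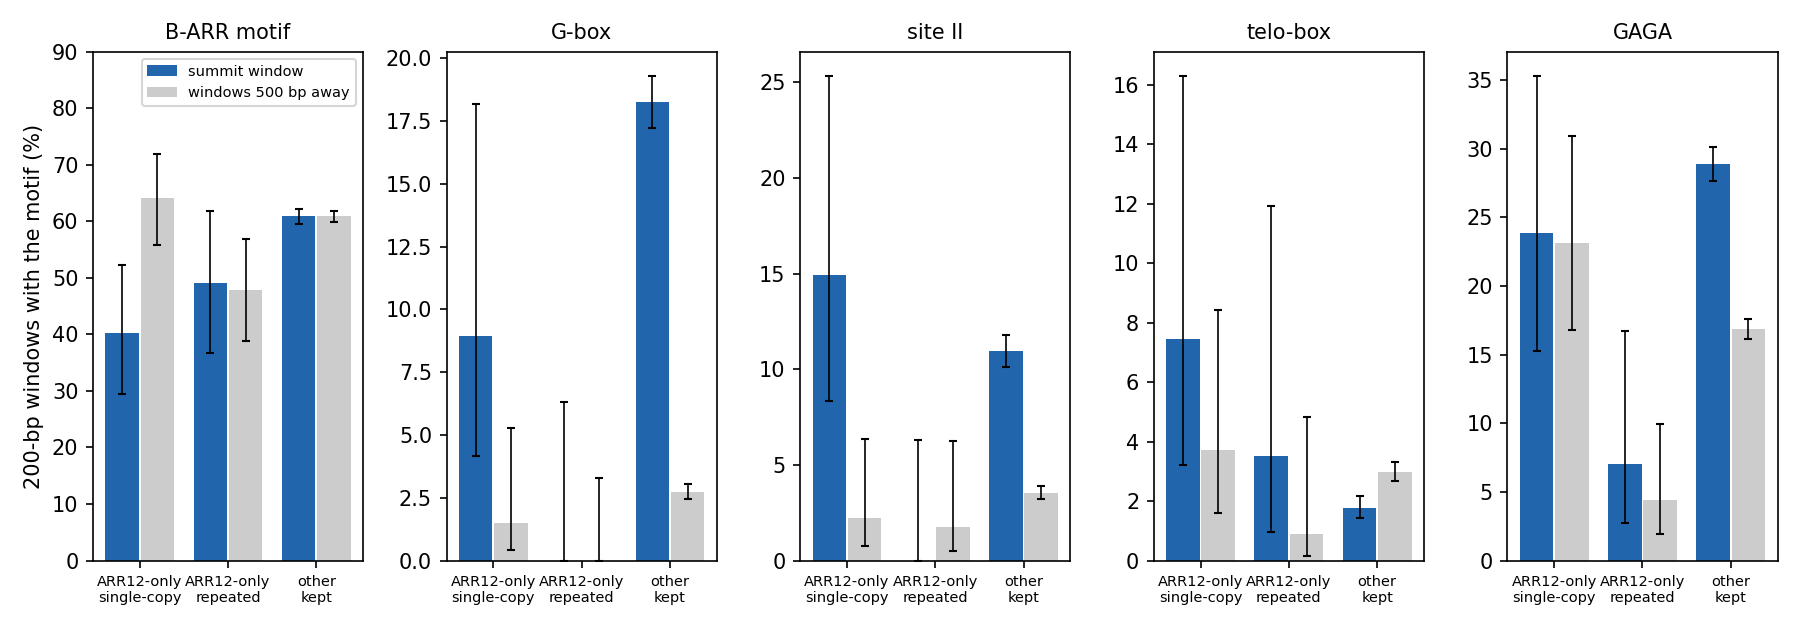
Percentage of 200-bp windows that hold each of 5 motifs (y axes, each with its own scale) at the summit (blue) and 500 bp to each side (grey), for single-copy ARR12-only, repeated ARR12-only and other kept peaks, with 95% Wilson intervals. The B-ARR motif stands at 40.3% at single-copy ARR12-only summits against 64.2% beside them, whereas the G-box and site II are higher at the summit than beside it in the single-copy and in the other kept peaks.

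The highest single-copy peaks show what such summits hold. The first, rank 1968 with a score of 29.37 and fold 5.87, lay in an untranslated exon of AT1G67300, a gene of the major facilitator superfamily of transporters, 51 bp after its TSS. MC2 (AT4G25110), a metacaspase or caspase-like cysteine protease, followed with 26.48 in its coding exon. AT1G52310, which encodes a protein kinase with a C-type lectin domain, had 25.63 at 18 bp after the TSS, and AT1G19396, an uncharacterized gene, had 25.16 within an intron. Windows of 100 bases at these summits (plus strand, chr1:25197057-25197156, chr4:12889631-12889730, chr1:19478034-19478133 and chr1:6710676-6710775) carry capitals for the B-ARR motif or the G-box. The window of AT4G20590, the shared peak of the cysteine-rich gene (chr4:11068260-11068359), is added for comparison.

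AT1G67300: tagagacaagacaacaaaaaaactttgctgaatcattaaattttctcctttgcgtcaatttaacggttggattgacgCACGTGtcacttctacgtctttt
AT4G25110: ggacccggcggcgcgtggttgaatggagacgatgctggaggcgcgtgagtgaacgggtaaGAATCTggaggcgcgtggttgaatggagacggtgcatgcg
AT1G52310: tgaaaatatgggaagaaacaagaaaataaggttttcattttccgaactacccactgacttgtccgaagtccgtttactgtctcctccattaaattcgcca
AT1G19396: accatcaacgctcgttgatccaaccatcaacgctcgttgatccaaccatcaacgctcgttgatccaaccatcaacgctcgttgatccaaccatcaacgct
AT4G20590: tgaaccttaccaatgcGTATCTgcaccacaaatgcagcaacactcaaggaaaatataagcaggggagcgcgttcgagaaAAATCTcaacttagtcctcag

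AT1G67300 held a G-box and no B-ARR motif, MC2 held 1 B-ARR motif, and AT4G20590 held 2. AT1G52310 and AT1G19396 held neither, and the AT1G19396 window is a short tandem repeat. Although that peak counted as single-copy, 46.9% of its 32-mers occurred more than once.

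Genes of transfer RNAs stood out among the single-copy peaks by number. The nearest gene was a tRNA gene at 7 of 67 (10.4%, 5.15–20.03), against 90 of 5259 other kept peaks (1.71%, 1.39–2.10) and 625 of the 37899 annotated genes (1.65%). This was noticed after the values were seen and was not tested. The scores were 22.56 at AT1G07760 (tRNA-His), 21.92 at AT1G26490 (tRNA-Ala), 21.73 at AT1G17660 (tRNA-Asp), 18.65 at AT2G03790 and 18.05 at AT2G22110 (both tRNA-Val), 16.89 at AT5G41265 (tRNA-Cys) and 16.14 at AT3G44955 (tRNA-Gly). Their summits lay 4 to 78 bp from the start of the gene, inside it at 5 and just past it at 2, and none was in the list labelled ARR12 6-BA. One 6-mer that was frequent at the summits is part of the B box, the internal promoter element of tRNA genes: GTTCGA, or its complement, was in 21 of 124 summit windows (16.9%) against 4.45% of the flanking windows and 5.63% of the other kept summits. It lay in 6 of the 7 tRNA peaks and 7 peaks of the ribosomal regions. The first 3 tRNA peaks in order of score that hold it are shown, with the 6-mer in capitals (plus strand, chr1:9158130-9158249, chr1:6075838-6075957 and chr2:1154344-1154463).

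AT1G26490 tRNA-Ala: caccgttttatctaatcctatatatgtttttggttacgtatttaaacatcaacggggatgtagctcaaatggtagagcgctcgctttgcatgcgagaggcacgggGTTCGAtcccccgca
AT1G17660 tRNA-Asp: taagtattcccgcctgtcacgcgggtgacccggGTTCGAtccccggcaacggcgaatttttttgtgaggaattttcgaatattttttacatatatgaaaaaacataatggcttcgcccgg
AT2G03790 tRNA-Val: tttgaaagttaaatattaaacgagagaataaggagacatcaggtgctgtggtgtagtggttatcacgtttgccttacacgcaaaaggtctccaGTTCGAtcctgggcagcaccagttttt

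Among 6-mers in at least 10% of the 124 summit windows, CCGTCG had the highest ratio of summit to flank. It was in 13 windows (10.5%) against 2.02%, and GTTCGA followed. Neighbouring windows of the same array were counted separately here, and CCGTCG was not among the first 10 for the single-copy peaks. For the single-copy peaks the first was ACCCGG, in 8 of 67 windows (11.9%) and none of 134 flanking windows. Of these 8, 4 were tRNA peaks. It was in 3.73% of the other kept summits. No 6-mer with the AGAT core was among the first 10 of either ranking.

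The 124 nuclear summits had 107 different nearest genes. Protein-coding genes were nearest to 80 of them (64.5%), against 87.5% of the other kept peaks, and pseudogenes to 18 (14.5%), against 1.46%. The rest had 12 misc_RNA, 7 tRNA, 3 rRNA, 2 lncRNA, 1 miRNA and 1 ncRNA genes. Genes nearest to 3 members were AT2G01010, AT3G06365, AT3G33055, AT4G05175, AT4G06716 and AT2G08986, and those nearest to 2 were AT2G03875, AT2G07981, AT3G00660, AT4G06700 and AT5G29550; all 11 lay in or beside the arrays. Within 1.5 kb of an ARR12-only summit were 173 genes, of which 43 (24.9%, 19.0–31.8) had a summit of another line with a score of at least 16 within the same distance. Of the 7848 genes within 1.5 kb of another kept peak, 7571 (96.5%) had one, a share that the choice of the peaks largely fixes. Counted by peak, the nearest genes of 23 of the 67 single-copy peaks were targets of another line in this way, up to 7 of the 8 lists, and 44 were not.

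No gene of the cytokinin list, which holds 58 receptors, phosphotransfer proteins, response regulators and metabolic genes, was the nearest gene or within 1.5 kb, whereas 22 of them were nearest to another kept peak. The auxin (97 genes), ethylene (31) and abscisic acid (46) lists also had 0, against 31, 16 and 23 among the genes nearest to other kept peaks. Since 4680 genes were nearest to other kept peaks and 107 to ARR12-only peaks, fewer than 1 gene of each of these lists would correspond to the same share. From the gibberellin, jasmonate and brassinosteroid list there was GA2OX8 (AT4G21200), a gibberellin-inactivating oxidase, with a score of 16.14 at 2779 bp before its TSS. From the light and clock list there was PIF3 (AT1G09530), a bHLH factor bound by phytochrome, with 17.34 at 3324 bp after the TSS. Each of these 2 genes made 0.935% of the nearest genes. Among the genes nearest to other kept peaks, the gibberellin, jasmonate and brassinosteroid list made 0.470% and the light and clock list 0.748%. Both genes were targets in other lists as well, PIF3 in 5 and GA2OX8 in 3.

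Transcription factor genes were nearest to 3 members (2.80% of the nearest genes, against 6.82% for the other kept peaks). These were GL2 (AT1G79840), a homeodomain factor of root-hair and trichome fate, with 18.91 at 1208 bp before the TSS, the GRAS gene AT5G67411 with 16.74, and AT5G39170, annotated as a myb-like protein, with 20.37 in repeated sequence. The GL2 peak lay 204 bp from a peak of another line. Protein kinase genes made 5 (4.67% against 6.13%), led by AT1G52310, UCNL (AT3G20830, an AGC kinase; 18.91) and DGK7 (AT4G30340; 18.65), which is a lipid kinase. Ubiquitin and F-box genes also made 5 (4.67% against 2.05%). The highest were AT2G44578, a RING/U-box gene, and AT5G41720, an F-box associated gene, both with 20.35, and AT5G10340 with 18.19.

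Disease resistance genes made 3 (2.80% against 0.983%). AT1G58848, of the CC-NBS-LRR class, had 20.28, and LAZ5 (AT5G44870) and AT5G45240, both of the TIR-NBS-LRR class, had 16.14. The peaks at AT1G58848 and AT5G45240 were in repeated sequence, and only the LAZ5 peak was single-copy. From the transporter list there was 1 gene (0.935% against 2.91%), AT3G22290, an endoplasmic reticulum vesicle transporter, with 18.73 at 79 bp after the TSS. From the chromatin list there was also 1 (0.935% against 0.171%), AT1G11060 (WAPL, a factor that releases cohesin), with 16.14. The lists of ribosomal proteins, photosynthesis, cell wall and heat, cold and drought proteins had 0 nearest genes, although 2 ribosomal protein genes and 3 cell wall genes lay within 1.5 kb. In that order, they made 0.256%, 0.342%, 1.35% and 1.11% of the genes nearest to other kept peaks. The lists go by symbols and by product words in the letter case given, and are not complete: AT2G41840 (22.99) and XW6 (AT1G58380; 17.07), of the Ribosomal protein S5 family, are not in the ribosomal list, and AT1G67300 is not in the transporter list. Nor are AT5G50630 (22.56) of the same superfamily and ABCB11 (AT1G02520; 17.51), a P-glycoprotein.

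The remaining single-copy peaks with scores over 20 were spread over genes of unlike kinds. They lay 42 bp before the TSS of AT1G54460, a TPX2 family gene of microtubule proteins (21.08), in an untranslated exon 3562 bp after the TSS of SIR (AT5G04590), the sulfite reductase of sulfur assimilation (20.51), and in one 4228 bp after the TSS of eIFiso4G1 (AT5G57870), a translation initiation factor (20.35). Others lay downstream of the aspartate aminotransferase gene AAT (AT2G22250; 20.89), of AT5G07340, a calreticulin family gene (22.56), and of RIC10 (AT4G04900; 20.35), whose product binds ROP GTPases. The genes most often bound elsewhere were ORP3C (AT5G59420), an oxysterol-binding protein relative, with 17.51 at 26 bp after the TSS, and AT1G67890, a PAS domain kinase, with 16.12 at 14 bp after it. Both were targets in 7 of the 8 lists of other lines, with summits elsewhere within 1.5 kb of the gene. SIR was a target in 6. For these genes the ARR12-only peak was thus an additional site at a gene that other lines also had.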

How the data were processed

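The members and gene lists were chosen with earlier results of these data known. The authors aligned single-end reads with Bowtie 0.12.7, keeping uniquely placed reads, and called peaks against input with MACS2 2.0.10. Replicates, at least 2 for every condition, were merged into 1 list by IDR. The submitters' processing notes name TAIR10 as the build. The only labelled input is from the ARR1 line after 6-BA. The deposited lists give a score (10 times the −log10 p-value), the fold enrichment as a ratio, the −log10 p-value used here as the peak score, and the summit offset. These values are the authors' own and were not tested between lists. The lists hold no depth, and of the 14 samples, 2 control and 2 RNA-seq records were not used here.

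Overlap was at least 1 bp. Summits were assigned to RefSeq TAIR10.1 genes, whose chromosome names and coordinates match the build, except that 1 peak ran past the end of chromosome 2. Shares were compared with two-sided Fisher's exact tests, Benjamini–Hochberg adjusted over 18 tests, at peak level. These tests treat every peak as independent, including neighbours in the same array. Intervals are 95% Wilson intervals. Repeats were found by 32-mer and 100-mer copy counts, by the commonest distance between identical 12-mers, and by blastn (BLAST 2.17.0) against the rRNA region of chromosome 3, the organelle genomes and 1 peak of the 5S-like class. Identity was at least 90%, or 80% for the last. Genes named are those nearest to the 20 highest peaks, the 10 highest in the other ARR12 list or at least 2 members, cytokinin genes within 1.5 kb, and up to 3 genes of each other list; tRNA genes and MC2, AT1G19396, AT2G41840, XW6, AT5G50630, ABCB11, AT1G54460, SIR, eIFiso4G1, AAT, AT5G07340, RIC10, ORP3C, AT1G67890, AT3G41768, AT2G01008, AT1G07940, AT5G34358 and the genes at the score and overlap limits were named after their values were seen. The alternatives were other score minimums, overlap rules, lists left out in turn, TSS distances, windows and gene sets, and, added after seeing the data, single-copy peaks only. Gene assignment, overlap, the motif search and the Fisher tests were checked on simulated data, and the repeat classes were not. Scripts ran under SciPy 1.17.1, pandas 2.3.3 and Python 3.11.15.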

Additional observations from a re-analysis of the deposited data

How the results depend on the processing

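The number of ARR12-only peaks was 125, and it moved with the rule: 18 with a minimum score of 30, 293 when other lists counted only from a score of 16, and 400 when a reciprocal overlap of 50% was required. It was 172 with every deposited peak and 110 when no peak of another line could lie within 500 bp. Leaving out each of the 8 lists gave 125 to 177, with the most gained without ARR10 mock (177) and ARR1 72 h (174). The share over 1.5 kb from any gene, 16.1%, was 22.2% at a minimum score of 30 and no longer passed the test (p = 0.0568, Fisher's exact test, 4 of 18 peaks). The lower share of motif windows did not pass with AGAT alone (80.6% against 86.9%, p = 0.05924, Fisher's exact test). Single-copy peaks only were an alternative chosen after seeing the data and not tested. There the share within 250 bp of a TSS was 58.2% against 43.1%, the reverse of a difference that had not passed the test. The share over 1.5 kb from any gene was 7.46% (3.23–16.31) against 7.86%, so the 16.1% was not repeated and the shares were nearly equal. The nearest genes numbered 107, or 173 with every gene within 1.5 kb. The lower share in the list labelled ARR12 6-BA kept its direction with a minimum score of 30 and with a 500-bp gap. It also did so with a reciprocal overlap of 50% and with only the other list's peaks from a score of 16. The shares were 1.60% to 16.7%, and each alternative passed the test. All of these alternatives kept the split by presence in other lines, which largely sets that direction. No paired analysis was possible because there was 1 merged list for each condition, without replicate columns.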
